A study of Mus musculus with 12 samples.

Results

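The genes described here encode the CREB family of cAMP-responsive transcription factors (Creb1, Crem and Atf1), the related ATF factors Atf2, Atf3 and Atf4, the CRTC coactivators Crtc1, Crtc2 and Crtc3, and the salt-inducible kinase gene Sik1. They were chosen by name, as the probe sets of the array whose only gene symbol in the platform annotation is one of these 10. Earlier results of these data were known at that time, so that counts among the 10 are not independent evidence. All 10 genes were found, each with 1 probe set, among 19938 genes that have a probe set of their own. Tests ran over all 23410 probe sets with at least 1 gene. Hippocampal RNA of 12 mice, 1 Affymetrix Mouse Gene 1.0 ST array per mouse, was compared over 4 groups of 3 mice each. All mice carried a tamoxifen-inducible Cre recombinase driven by the Camk2a promoter, which acts in glutamatergic forebrain neurons, so that other cells of the hippocampus keep Srf. All were on a C57/Bl6 background, were 7 to 10 weeks old and had been injected with tamoxifen.

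The first group held heterozygous mice, which have 1 floxed Srf allele, without pilocarpine (heterozygous controls, SRF-WT-control in the labels). The second held heterozygous mice with a status epilepticus (SE) of 40 min after 335 or 350 mg/kg pilocarpine, a muscarinic agonist (SRF-WT-pilo). The remaining groups held mice with both Srf alleles floxed (Srf mutants), without pilocarpine (SRF-KO-control) or with it (SRF-KO-pilo). Mice without pilocarpine received Ringer solution. In the labels the mutants given pilocarpine are marked as with seizure, and the methods of the study list the group of 3 such mutants as mice that did not reach SE. Thus genotype and SE cannot be told apart in any difference between the responses of heterozygous and mutant mice. The time at which mutants without SE were harvested, and which mouse received which dose, are not given in the sources used here.

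CREB and its relatives are basic leucine zipper proteins that bind the cAMP response element (CRE) as dimers. In neurons, calcium and cAMP activate kinases that phosphorylate CREB in its kinase-inducible domain, which then recruits the acetyltransferases CBP and p300. CRTC coactivators reach the nucleus when calcineurin removes phosphates that salt-inducible kinases have placed on them, and Sik1 is itself a CREB target, which makes it part of a negative feedback. Crem also yields the short repressor ICER from an internal promoter. Atf3 and Atf4 are stress-responsive members of the wider family and are known for their induction by cell stress and by blocked translation initiation.

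Promoter sequences are shown for 3 of the members that changed in SE and are in the RefSeq promoter table (build GRCm38.p6). CRE-related letters are in capitals, and the 3 shown are those with such a match. Creb1, which was also called lower in SE and has an entry, had no such match and is not shown. Atf3 was the most strongly induced member, Atf4 rose less and Atf1 fell. Each run gives the 250 bases before the annotated start, 5′ to 3′ on the strand of the gene.
Atf3 chr1:191183334-191183583, minus strand: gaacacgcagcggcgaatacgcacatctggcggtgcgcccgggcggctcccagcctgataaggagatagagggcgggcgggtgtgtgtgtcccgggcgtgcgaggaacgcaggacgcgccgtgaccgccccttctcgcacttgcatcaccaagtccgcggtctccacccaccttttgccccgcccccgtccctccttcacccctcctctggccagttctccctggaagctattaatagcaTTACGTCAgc
Atf4 chr15:80254934-80255183, plus strand: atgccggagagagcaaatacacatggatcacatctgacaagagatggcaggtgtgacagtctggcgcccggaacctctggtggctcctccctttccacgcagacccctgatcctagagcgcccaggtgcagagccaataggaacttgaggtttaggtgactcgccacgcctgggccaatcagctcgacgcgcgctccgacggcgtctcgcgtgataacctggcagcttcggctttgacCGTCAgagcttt
Atf1 chr15:100227609-100227858, plus strand: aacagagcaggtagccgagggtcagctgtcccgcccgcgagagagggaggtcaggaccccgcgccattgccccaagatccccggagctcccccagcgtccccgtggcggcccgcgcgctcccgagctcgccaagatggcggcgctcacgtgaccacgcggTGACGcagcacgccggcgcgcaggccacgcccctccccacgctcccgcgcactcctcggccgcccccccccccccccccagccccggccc

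Both strands of the whole table entries, 250 bases before to 50 bases after the start, were searched in 32851 promoters. The palindromic CRE, TGACGTCA, was in 1.79% of all promoters and in none of the 7 members with an entry. The CRE-like element TTACGTCA lay 10 bases before the start of Atf3 and was in 0.499% of all promoters. The core TGACG, which the longer motifs contain, was in 3 of the 7 members, Atf3, Atf4 and Atf1, and in 20.8% of all promoters. In Atf4 it was on the opposite strand, 12 bases before the start, with another match 40 bases after it, and in Atf1 it began 90 bases before the start. The CArG box, the site bound by SRF, was in 1.63% of all promoters and in none of the 7 members. Crem, Crtc2 and Sik1 have no sequence here, and a match or its absence says only which letters the window holds. The TTACGTCA search was added after the Atf3 sequence had been seen.

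Srf itself checked the genotype labels. Its log2 level was 9.57 ± 0.041 in heterozygous controls and lower in mutant controls, at 8.90 ± 0.089 (SD, n = 3 mice each), a log2 fold change of -0.67 (adjusted p = 0.000263 by limma, standard error 0.052). Over the 23410 probe sets the median log2 level per array was 7.66 to 7.72, and any pair of arrays correlated with an r of at least 0.993 across probe sets. Markers of excitatory neurons, from Neurod6 at 11.43 to Camk2a at 13.95 (log2, mean of 12 arrays), were present as in hippocampus, and 0 of 4 were called in any comparison. Of 12 marker lists, 3 held called genes, all of them lower in heterozygous SE, with microglia at 2 of 4 (Cx3cr1 and P2ry12), endothelial cells at 1 of 4 (Tek) and striatal neurons at 1 of 3 (Drd1). The mean log2 level of the microglia list was 8.48 to 8.53 in heterozygous controls and 8.35 to 8.41 in heterozygous mice with SE, that of the endothelial list 8.59 to 8.75 and 8.25 to 8.76, and that of the striatal list 7.99 to 8.12 and 7.76 to 7.89. The part of these markers in the results was not tested, and in bulk tissue fewer cells of a type and less RNA per cell cannot be told apart. The sexes were not balanced, since Xist was above 9 (log2) in 1 heterozygous control, 0 heterozygous mice with SE, 2 mutant controls and 1 pilocarpine-injected mutant.

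In heterozygous mice with SE, Atf3, Sik1, Atf4 and Crem rose and Atf1 and Creb1 fell. Thus 6 of the 10 genes were called at an adjusted p under 0.05, compared with 12% of all tested probe sets. Of these, 4 were higher, against 5.08% of all probe sets, and 2 were lower, against 6.93%. Values of the 2 groups did not overlap for the same 6 genes, which was the case for 30.4% of all probe sets. Atf2 and the 3 CRTC coactivator genes did not pass the test. The median log2 fold change was 0.085 over the 10 genes and -0.026 over all probe sets.

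**Figure D1:**
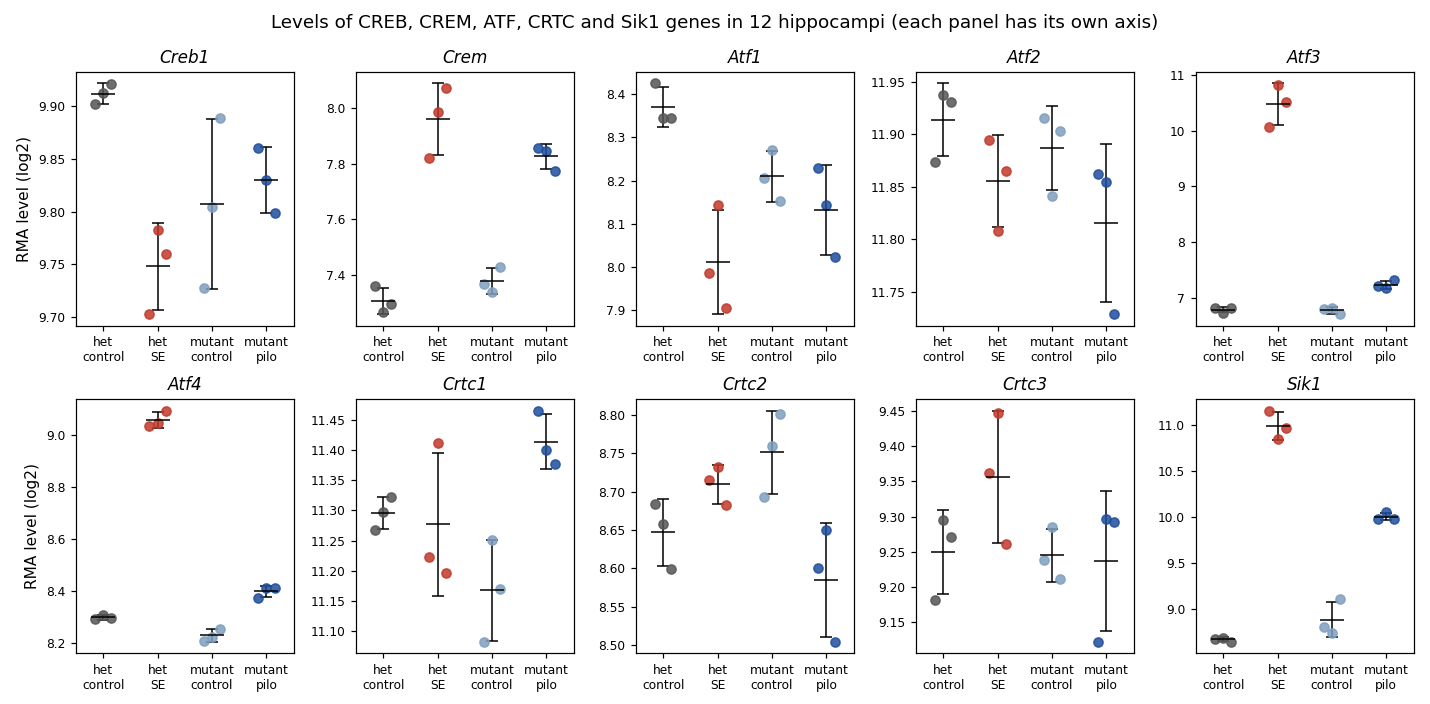
RMA levels (log2, y axis) of the 10 genes in each of the 12 mice, by group (x axis). Points are mice, horizontal bars group means and error bars SDs (n = 3 mice each); each panel has its own y axis. All 3 heterozygous mice with SE lie above all other mice for Atf3, Atf4 and Sik1, whereas the SE and control mice overlap for Atf2, Crtc1, Crtc2 and Crtc3.

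Among the CREB family proper, Creb1 encodes the factor that is phosphorylated upon neuronal activity. The Creb1 level (log2) was 9.90, 9.91 and 9.92 in heterozygous controls and 9.70, 9.78 and 9.76 in heterozygous mice with SE. Mutants had 9.73, 9.80 and 9.89 without and 9.86, 9.83 and 9.80 with pilocarpine. All SE values were thus lower than the heterozygous controls, while the mutant groups overlapped. The log2 fold change in SE was -0.16 (adjusted p = 0.0393 by limma, standard error 0.047), a reduction to 0.893-fold. This call was lost in 13 of 21 alternative settings, among them without any one of the 3 heterozygous controls or of the 3 mice with SE, with adjusted p of up to 0.133. In mutants the log2 fold change was 0.023 with a 95% confidence interval from -0.079 to 0.12.

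Atf1, the closest relative of Creb1 besides Crem, fell more clearly. Heterozygous controls had log2 levels of 8.42, 8.34 and 8.34, and mice with SE 7.99, 8.14 and 7.91. In mutants the levels were 8.21, 8.27 and 8.15 without and 8.23, 8.14 and 8.02 with pilocarpine. The mutant groups overlapped each other and both lay below the heterozygous controls. The log2 fold change in SE was -0.36 (adjusted p = 0.00343 by limma, standard error 0.067) and the call was kept in all 21 alternatives. In mutants it was -0.078 with a 95% confidence interval from -0.22 to 0.068. The difference between both responses, 0.28 (standard error 0.095), did not pass the test (adjusted p = 0.148 by limma), although it did with array weights (adjusted p = 0.0472).

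Crem encodes activators as well as the inducible repressor ICER, which the single probe set of the gene does not separate. Its log2 level was 7.36, 7.27 and 7.30 in heterozygous controls and 7.82, 7.99 and 8.07 in SE. The mutants had 7.37, 7.34 and 7.43 without and 7.86, 7.85 and 7.77 with pilocarpine. Every pilocarpine-injected mouse lay above every control mouse, and the injected heterozygous and mutant mice overlapped. Crem rose by a log2 fold change of 0.65 in SE (adjusted p = 1.49e-05 by limma, standard error 0.061) and by 0.45 in mutants (adjusted p = 0.00275 by limma, standard error 0.061). The difference of these responses was -0.20 with a 95% confidence interval from -0.39 to -0.018 and did not pass the test (adjusted p = 0.26 by limma). Crem calls were kept in all 20 alternatives in which it was tested.

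Atf2, a partner of Jun that is activated by stress kinases, ranged from 11.87 to 11.94 (log2) in heterozygous controls and from 11.81 to 11.89 in SE. In mutants it ranged from 11.84 to 11.92 without and from 11.73 to 11.86 with pilocarpine. Groups of the same genotype overlapped. The log2 fold change was -0.058 (95% confidence interval -0.16 to 0.046) in heterozygous mice and -0.072 (95% confidence interval -0.18 to 0.033) in mutants.

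Atf3, a stress-induced factor that forms dimers with Jun proteins, showed the largest change of the 10 genes. Its log2 level was 6.81, 6.73 and 6.80 in heterozygous controls and 10.08, 10.83 and 10.52 in heterozygous mice with SE. Mutant controls had 6.80, 6.80 and 6.70 and mutants with pilocarpine 7.20, 7.17 and 7.32. The control groups of both genotypes overlapped, the injected mutants lay above them, and the mice with SE lay far above all others. All groups except heterozygous SE lay below the median log2 level per array, 7.66 to 7.72, so that their Atf3 levels may be background. The log2 fold change in heterozygous mice was 3.69 (adjusted p = 2.21e-09 by limma, standard error 0.13), or 12.9-fold. In mutants it was 0.46 (standard error 0.13), or 1.38-fold, and did not pass the test (adjusted p = 0.109 by limma) although the arrays did not overlap. The test uses 1 spread for all groups, and Atf3 had an SD of 0.377 in heterozygous SE and of at most 0.078 in the other groups. With only both mutant groups in the fit Atf3 was called (adjusted p = 0.0156), as it was without heterozygous SE replicate 1 or 2 (adjusted p = 0.00937 and 0.0311). The response in mutants differed from that in heterozygous mice by -3.23 (adjusted p = 1.24e-06 by limma, standard error 0.19).

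Atf4, the effector of the integrated stress response, rose moderately with little spread. Heterozygous controls had log2 levels of 8.29, 8.31 and 8.29 and mice with SE 9.03, 9.05 and 9.09. Mutants had 8.21, 8.22 and 8.25 without and 8.37, 8.41 and 8.41 with pilocarpine. The 4 groups did not overlap, in the order of mutant controls, heterozygous controls, mutants with pilocarpine and heterozygous mice with SE. Atf4 rose by a log2 fold change of 0.76 in SE (adjusted p = 3.16e-08 by limma, standard error 0.037), or 1.69-fold. In mutants the value was 0.17 (adjusted p = 0.0411 by limma, standard error 0.037), a call that was lost in 17 of 21 alternatives, including without any single array (adjusted p of up to 0.131). The difference of responses was -0.59 (adjusted p = 3.51e-05 by limma, standard error 0.053).

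The CRTC coactivators bind the leucine zipper of CREB. Crtc1, the main neuronal form, had log2 levels of 11.27, 11.30 and 11.32 in heterozygous controls and 11.22, 11.41 and 11.20 in SE. In mutants the levels were 11.08, 11.25 and 11.17 without and 11.46, 11.40 and 11.38 with pilocarpine. The heterozygous groups overlapped and the mutant groups did not. The log2 fold change of Crtc1 was -0.019 (95% confidence interval -0.15 to 0.11) in heterozygous mice and 0.25 (standard error 0.061) in mutants, and the latter did not pass the test (adjusted p = 0.0667 by limma). It passed in 4 of 21 alternatives, with an intensity trend, with brighter probe sets alone, with array weights and without heterozygous SE replicate 2, down to an adjusted p of 0.0315.

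Crtc2 moved in the opposite direction in the mutants. It had log2 levels of 8.68, 8.66 and 8.60 in heterozygous controls and of 8.72, 8.73 and 8.68 in SE, so that these groups overlapped. Mutant controls had 8.69, 8.76 and 8.80 and mutants with pilocarpine 8.60, 8.65 and 8.50, without overlap. The log2 fold change in mutants was -0.17 (adjusted p = 0.111 by limma, standard error 0.049), with no call in any of 21 alternatives. Crtc3 ranged from 9.12 to 9.45 (log2) over all 12 mice, and its log2 fold change was 0.11 (95% confidence interval -0.026 to 0.24) in heterozygous mice and -0.0076 (95% confidence interval -0.14 to 0.13) in mutants. No CRTC gene was called in any of the 4 comparisons of the main design. The difference between the Crtc1 responses was 0.26 (adjusted p = 0.136 by limma, standard error 0.087), and it passed with array weights (adjusted p = 0.0442) and without heterozygous SE replicate 2 (adjusted p = 0.0319).

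Sik1 encodes a kinase that phosphorylates CRTC proteins and keeps them in the cytoplasm. Its log2 level was 8.68, 8.69 and 8.65 in heterozygous controls and 11.15, 10.85 and 10.97 in SE. Mutant controls had 8.81, 8.74 and 9.11 and mutants with pilocarpine 9.98, 10.05 and 9.98. None of the 4 groups overlapped, and the spread of mutant controls came from replicate 3, which at 9.11 was the highest. The same array was the highest of its group for Fos (7.36 against 6.79 and 6.96) and Fosb (8.91 against 8.13 and 8.34). Sik1 rose by a log2 fold change of 2.32 in SE (adjusted p = 3.84e-09 by limma, standard error 0.09), or 5.0-fold, and by 1.12 in mutants (adjusted p = 4.83e-05 by limma, standard error 0.09), or 2.17-fold. The difference of responses was -1.20 (adjusted p = 0.000149 by limma, standard error 0.13). These 3 calls were kept in all alternatives, and without mutant control replicate 3 the log2 fold change in mutants was 1.23.

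**Figure D2:**
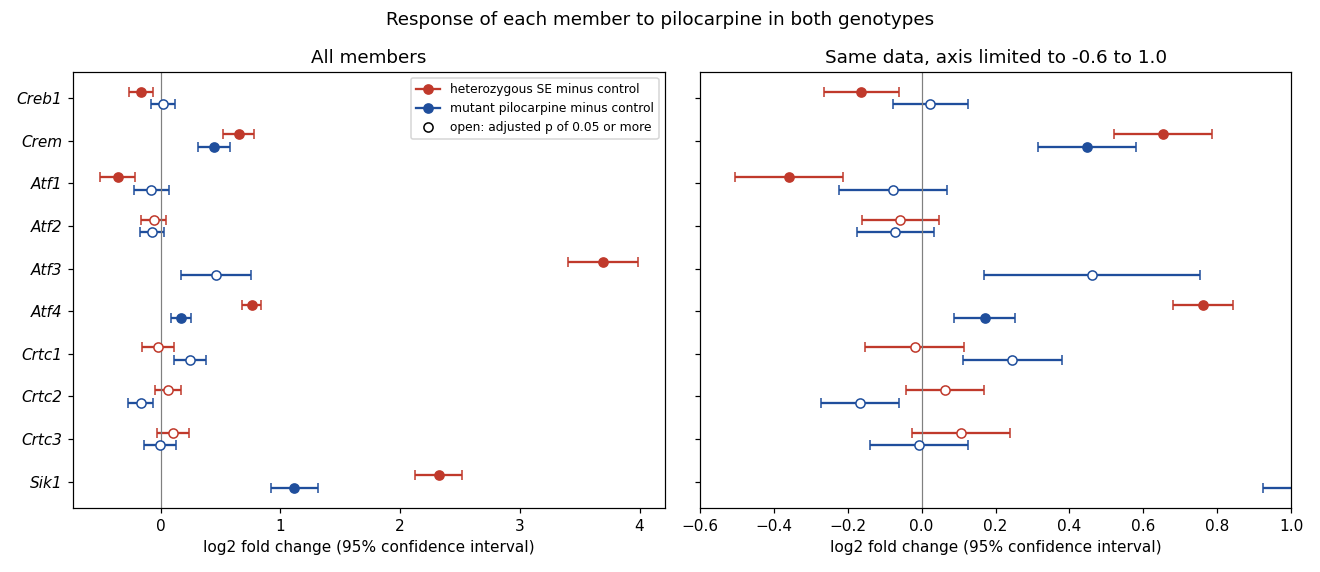
Log2 fold change (x axis) of each gene in heterozygous mice with SE (red) and in mutants with pilocarpine (blue), each against the controls of the same genotype, with 95% confidence intervals. Filled points passed the test; the right panel shows the same data on a narrower axis, where the Atf3 value of 3.69 and the Sik1 values of 2.32 and 1.12 lie beyond the right edge.

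In mutants with pilocarpine, 3 of the 10 genes were called against mutant controls, all of them higher (Sik1, Crem and Atf4), compared with 1.84% of all probe sets called in either direction, 0.871% higher and 0.965% lower. Groups did not overlap for 6 of the 10, namely Crem, Atf3, Atf4, Crtc1, Crtc2 and Sik1, compared with 18.4% of all probe sets. The median log2 fold change was 0.097 over the 10 genes and -0.0036 over all probe sets. Sik1 alone passed the limits of the study, an adjusted p under 0.001 and a change of at least 2-fold, which 0.0726% of all probe sets did. In heterozygous SE, Atf3 and Sik1 passed these limits, as did 0.662% of all probe sets.

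The test of the interaction of genotype and pilocarpine called 3 of the 10 genes, Atf3, Sik1 and Atf4, all with a smaller response in the mutants. Over all probe sets, 3.59% were called in this test, 2.12% lower and 1.47% higher. On the linear scale, the fold change in mutants divided by that in heterozygous mice was 0.106 for Atf3, 0.434 for Sik1 and 0.664 for Atf4. This ratio is not the share of the rise that mutants kept, since for Atf4 it compares 1.13-fold with 1.69-fold. For Crem the ratio was 0.868, which did not pass the test.

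Without pilocarpine, mutant and heterozygous controls did not differ at an adjusted p under 0.05 in any of the 10 genes (limma). At an unadjusted p under 0.05, Creb1, Atf1 and Sik1 passed, with log2 fold changes of -0.10, -0.16 and 0.21. Over all probe sets 0.120% were called. Groups did not overlap for 6 of the 10 genes, Creb1, Atf1, Atf4, Crtc1, Crtc2 and Sik1, compared with 13.6% of all probe sets. The median log2 fold change was -0.021 over the 10 genes and -0.0071 over all probe sets. The 95% confidence intervals of the 10 genes reached from -0.31 to 0.41 at most, the upper end being that of Sik1.

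Other genes of the pathway were described by 9 lists. Targets of CREB were the list in which most genes rose. In heterozygous SE 19 of 21 measured genes were higher and 0 lower, with a median log2 fold change of 2.08. Over all probe sets 5.08% were higher and 6.93% lower, with a median of -0.026. Npas4, a calcium-responsive neuronal transcription factor, rose by 5.76, Fos, a subunit of AP-1, by 5.34, Dusp1, a MAP kinase phosphatase, by 3.50 and Nr4a1, an orphan nuclear receptor, by 3.42 (log2, adjusted p of at most 4.59e-10 by limma). Penk and Ppargc1a were the genes not called, with log2 fold changes of 0.31 and -0.093. In mutants with pilocarpine 15 of 21 were higher and 0 lower, with a median of 0.67. Over all probe sets 0.871% were higher, with a median of -0.0036. By the interaction test 16 of 21 had a smaller response, beside 2.12% of all probe sets called lower. The mutant count ranged from 11 to 15 over the alternatives. Nr4a2 lost its mutant call in 15 of 21 alternatives, Pcsk1 in 14, Inhba in 4 and Vgf in 3, each including fits without a single array. Several genes of the list, such as Fos, Egr1 and Junb, are also known targets of SRF, so that the list does not separate the factors. In mutant controls Vgf, a neuropeptide precursor gene, was the only gene of the list called against heterozygous controls, with a log2 fold change of 0.54 (adjusted p = 0.000391 by limma, standard error 0.047). No gene of the other 8 lists was called in that comparison. The list was also chosen when results of these arrays were known and is not independent evidence of its direction.

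**Figure D3:**
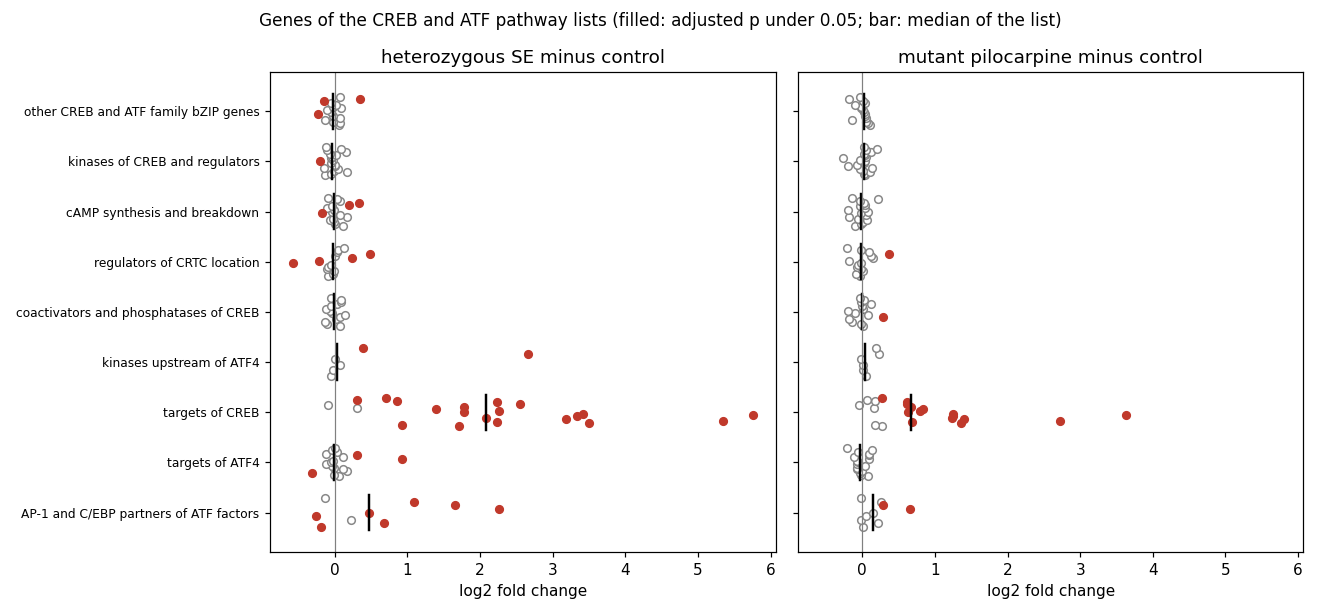
Log2 fold change (x axis) of each measured gene of the 9 lists (y axis) in heterozygous mice with SE (left) and in mutants with pilocarpine (right), each against controls of the same genotype. Points are genes, filled where the adjusted p was under 0.05, and bars are list medians; the CREB targets have medians of 2.08 and 0.67 and those of the kinase, cAMP and coactivator lists lie between -0.033 and 0.025.

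Upstream components of the CREB pathway were called at shares to be read against the 12% of all probe sets called in heterozygous SE and the 1.84% called in mutants. Of 19 kinase genes and their regulators, Pkia, an inhibitor of protein kinase A, was the only one called in heterozygous SE, with a log2 fold change of -0.20 (adjusted p = 0.0224 by limma, standard error 0.051). Of 17 genes of cAMP synthesis and breakdown, the phosphodiesterase genes Pde4d and Pde4b rose by 0.33 (adjusted p = 0.000744 by limma, standard error 0.05) and 0.20 (adjusted p = 0.0112 by limma, standard error 0.045), and Pde10a fell by 0.17 (adjusted p = 0.0219 by limma, standard error 0.044). The list medians were -0.033 and -0.0033, compared with -0.026 over all probe sets. The difference of the Pde4d responses was -0.30 (adjusted p = 0.034 by limma, standard error 0.07). That call was lost in 10 of 20 alternatives, 9 of them without a single array. None of 14 coactivator and phosphatase genes, which include Crebbp and Ep300, was called in heterozygous SE. In mutants with pilocarpine 1 of these 14 was higher, Hdac4, with a log2 fold change of 0.28 (adjusted p = 0.0103 by limma, standard error 0.047), and 0 of 19 kinase and 0 of 17 cAMP genes were called. The calls of Pkia, Pde4b, Pde10a and Hdac4 depended on single arrays. Pkia was lost without replicate 1 or 2 of either heterozygous group, Pde4b without replicate 3 of either heterozygous group, Pde10a without heterozygous control replicate 1 or 2 or heterozygous SE replicate 1 or 3, and Hdac4 without replicate 1 or 2 of the mutants with pilocarpine. Pkia and Pde10a were also lost after median centring, and Pkia and Hdac4 when the other 2 groups were left out of the model.

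Regulators of CRTC location included further kinases of the Sik1 family. Sik2 rose by a log2 fold change of 0.48 in heterozygous SE (adjusted p = 0.000477 by limma, standard error 0.068) and by 0.37 in mutants (adjusted p = 0.0176 by limma, standard error 0.068), and the difference of -0.11 did not pass the test. Rcan1, an inhibitor of calcineurin, rose by 0.24 in SE (adjusted p = 0.0123 by limma, standard error 0.055). Prkaa1 and Prkaa2, the catalytic subunits of the AMP-activated kinase, fell by 0.57 (adjusted p = 8.18e-05 by limma, standard error 0.065) and 0.22 (adjusted p = 0.0229 by limma, standard error 0.056). The Prkaa1 response differed between genotypes by 0.56 (adjusted p = 0.00451 by limma, standard error 0.092), with a log2 fold change of -0.012 in mutants. Strada, which encodes a partner of the kinase LKB1, had a difference in response of -0.33 (adjusted p = 0.0442 by limma, standard error 0.081), a call lost in 14 of 20 alternatives, 10 of them without a single array, with adjusted p of up to 0.118. Thus 2 of 14 genes were higher and 2 lower in heterozygous SE, and 1 was higher in mutants, beside the shares of 12% and 1.84% over all probe sets. The mutant call of Sik2 was lost without replicate 1 or 2 of either mutant group and when the heterozygous groups were left out of the model. That of Rcan1 was lost without heterozygous control replicate 2, and that of Prkaa2 without heterozygous control replicate 1 or 3 or heterozygous SE replicate 2. Of the 16 further bZIP genes of the family, Crebzf was higher with 0.35 in SE, and Batf3 and Crebl2 were lower with -0.22 and -0.15, while 0 of 16 were called in mutants. These 3 of 16 are to be read against the same 12%. The difference of the Crebzf responses was -0.53 (adjusted p = 0.013 by limma, standard error 0.1), with a log2 fold change of -0.18 in mutants. It was called in all 20 alternatives. The call of Batf3 was lost in 12 of 20 alternatives and that of Crebl2 in 8 of 21, among them without any single array of the heterozygous groups, whereas Crebzf kept its call.

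Genes around Atf4 moved unevenly. Of 6 measured genes upstream of Atf4, the ones that rose in heterozygous SE were not kinases. Ppp1r15a, which encodes the stress-inducible partner of the phosphatase that acts on eIF2alpha, rose by a log2 fold change of 2.66 (adjusted p = 4.59e-10 by limma, standard error 0.083) and Ppp1r15b, its constitutive counterpart, by 0.39 (adjusted p = 0.000206 by limma, standard error 0.049). The 4 eIF2alpha kinase genes were not called. In mutants neither gene passed, and the response of Ppp1r15a was smaller by -2.43 (adjusted p = 2.22e-07 by limma, standard error 0.12). Of 17 targets of ATF4, Sesn2, a stress-inducible regulator of mTORC1, rose by 0.93 (adjusted p = 1.91e-06 by limma, standard error 0.068) and Slc3a2, an amino acid transporter subunit, by 0.30 (standard error 0.038), whereas Chac1, which encodes a glutathione-degrading enzyme, fell by 0.32 (adjusted p = 0.00149 by limma, standard error 0.052). The other 14 were not called and the median was -0.004, beside -0.026 over all probe sets. The calls among the 17 targets and the 6 upstream genes are to be read against the 12% of all probe sets called in heterozygous SE. In mutants 0 of 17 passed the test (limma), as did 1.84% of all probe sets. The difference of the Sesn2 responses was -0.83 (adjusted p = 0.000348 by limma, standard error 0.097) and was called in all 20 alternatives.

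Among 9 AP-1 and C/EBP genes whose products can pair with ATF factors, 5 were higher and 2 lower in heterozygous SE. Over all probe sets 5.08% were higher and 6.93% lower. The lower genes were Cebpg and Cebpa, with log2 fold changes of -0.26 and -0.19, and Cebpa lost its call in 9 of 21 alternatives. Fosl2 rose by 2.26 (log2, standard error 0.095), Jun by 1.66 (standard error 0.056), Jund by 1.09 (standard error 0.061) and Cebpb by 0.68 (standard error 0.07), with adjusted p of at most 3.87e-05 by limma. In mutants 2 of 9 were higher, Fosl2 with 0.66 and Jun with 0.29, beside 0.871% of all probe sets. Jun lost its call in 7 of 21 alternatives. These included fits without replicate 1 or 2 of the mutants with pilocarpine or replicate 2 or 3 of the mutant controls. Responses were smaller in mutants for 4 of 9 genes by the interaction test, beside 2.12% of all probe sets called lower. Of these 4, Cebpb lost its call in 6 of 20 alternatives, 5 of them without a single array.

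Genes whose pattern was most like that of Atf3 or Sik1 were taken by Pearson correlation over the 12 arrays among 11671 other genes. For Atf3 these were Cwc25, a splicing factor gene (r = 0.998), Klf4, a Krüppel-like factor (r = 0.996), and Ppp1r15a (r = 0.995). Their log2 fold changes were 2.77, 2.83 and 2.66 in heterozygous SE and 0.30, 0.38 and 0.23 in mutants. For Sik1 they were Fosb (r = 0.997), Fos (r = 0.996) and Arid5a, which encodes a DNA- and RNA-binding protein (r = 0.995), with 5.26, 5.34 and 1.30 in heterozygous SE and 2.53, 2.72 and 0.73 in mutants. In mutants none of the 3 genes like Atf3 was called, as was the case for Atf3 itself, while Fosb, Fos and Arid5a were called higher in both genotypes. The mutant arrays were among those used to choose these genes, so that their likeness in mutants follows from the choice. The 12 arrays fall into the 4 groups, so that these correlations mainly describe group means.

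**Figure D4:**
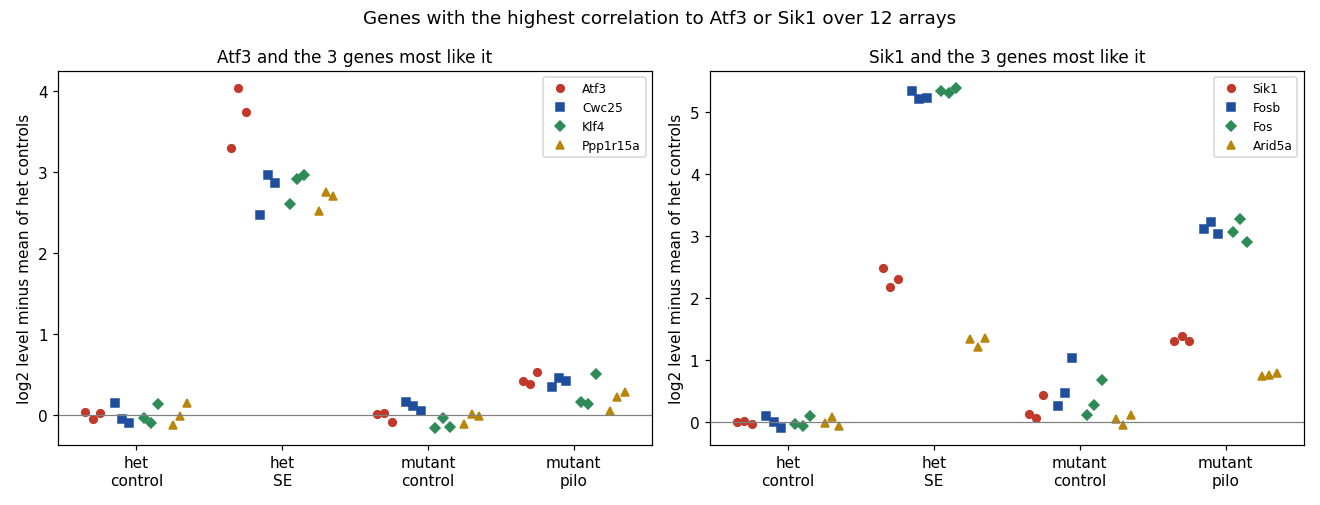
Log2 level minus the mean of heterozygous controls (y axis) in each mouse by group (x axis), for Atf3 (left) and Sik1 (right) with the 3 genes most like each. Points are mice (n = 3 per group); injected mutants lie between 0.054 and 0.534 for Atf3 and its likes, and between 0.746 and 3.27 for Sik1 and its likes.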

How the data were processed

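Hippocampal RNA of 12 mice was hybridised to Affymetrix Mouse Gene 1.0 ST arrays, 1 for each mouse. The deposited values are log2 levels that the authors made with Affymetrix Expression Console by RMA (version not given in the sources used here), which corrects background and makes the arrays' distributions alike. They hold no detection calls, so that a low level may be background. Groups were taken from the sample titles. Probe sets were named through the platform annotation, and of 35556 in all, 23410 had a gene (21789 had 1 gene and 1621 several, and 12146 had none). Of those with 1 gene, 21698 matched the RefSeq gene table of GRCm38.p6, and 0 symbols changed.

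All 23410 probe sets were fitted with limma 3.58.1 in R 4.3.3 (lmFit and eBayes, a mean per group, no block), with 4 contrasts, and p-values were adjusted by Benjamini-Hochberg over all of them within each contrast. Genes were called at an adjusted p under 0.05, confidence intervals are at 95%, and ± gives the SD of 3 mice. The fit was tested on simulated data, where it called 86% of probe sets changed by 0.5 (log2) and 100% of those changed by 1 in heterozygous SE, and 78% and 98% in the interaction. The 10 genes and all lists were chosen with earlier results of these data known. Named genes are the 10, Srf, up to 4 called genes of each list with the largest change in heterozygous SE, and, for members called there with an absolute log2 fold change of at least 1, the 3 genes with the highest correlation among those with a mean level of at least 7. Vgf, Penk, Ppargc1a, Strada, Hdac4 and the genes set beside Sik1 were added after their values were seen. The same holds for Nr4a2, Pcsk1, Inhba, Cebpa and Cebpg, and for the named markers Cx3cr1, P2ry12, Tek and Drd1. Alternatives were an intensity trend with a robust prior, brighter probe sets, median centring, renewed quantile normalization, only the compared groups, array weights, all probe sets, animal number as a block, Xist as a covariate, and 12 fits without 1 array. Animal numbers did not pair the arrays. Promoters were searched in Python 3.11.15.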

Additional observations from a re-analysis of the deposited data

Results flagged for a closer look

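The response to pilocarpine differed between heterozygous mice and Srf mutants in 3 of the 10 genes, by the interaction term of limma. Atf3 had a difference of -3.23 (log2), Sik1 of -1.20 and Atf4 of -0.59, each a smaller response in the mutants, and all 3 differences were called in each of 20 alternatives. Genotype and SE cannot be told apart in them. The 12 arrays form groups of 3, too few to test single arrays as outliers.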

How the results depend on the processing

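Over the alternatives, the calls of Atf3, Sik1, Atf4, Crem and Atf1 in heterozygous SE, of Sik1 and Crem in mutants and of Atf3, Sik1 and Atf4 in the interaction were kept wherever the gene was tested. Crem is not among the brighter probe sets. The number of genes called was 2 in heterozygous SE and 1 in mutants at the limits of the study, and 5 in the interaction with array weights. Without single arrays it ranged from 5 to 6 in heterozygous SE, from 2 to 4 in mutants, from 0 to 0 between controls and from 3 to 4 in the interaction. The calls lost were those of Creb1 in heterozygous SE and Atf4 in mutants.

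Values that changed sign were all uncalled and close to 0. After median centring, Crtc1 in heterozygous SE was 0.013 and Crtc3 in mutants 0.0084, and the latter was 0.0098 after renewed quantile normalization and 0.0071 with Xist as a covariate. Atf2 in the interaction was 0.0044 with array weights. Without single arrays, Crtc1 in heterozygous SE ranged from -0.086 to 0.021, Creb1 in mutants from -0.017 to 0.064, Crtc3 in mutants from -0.037 to 0.050, Atf3 between controls from -0.042 to 0.019, Crtc3 between controls from -0.038 to 0.018, and Atf2 in the interaction from -0.037 to 0.030. The cause was not tested.

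With the animal number as a replicate block, the log2 fold change of Creb1 stayed at -0.16 in heterozygous SE but its adjusted p was 0.0623, and Atf4 in mutants had an adjusted p of 0.0754. The block changed no other call among the 10 genes. Of the lists, it left 1 in place of 2 further bZIP genes lower in heterozygous SE and 1 in place of 2 AP-1 and C/EBP genes higher in mutants. In the interaction it left 0 in place of 1 CRTC regulator (Strada) lower. The block also lost the mutant calls of the CREB targets Nr4a2 and Pcsk1 and the interaction call of Cebpb. Same-numbered arrays did not deviate together (mean r = 0.0015, from -0.31 to 0.32 over 18 pairs), and 3 of 12 arrays correlated best with their own number. Of all probe sets, 1190 were higher and 1623 lower in heterozygous SE, but 1422 and 1115 after median centring. In mutants 204 were higher and 226 lower, but 233 and 164 after median centring and 236 and 177 after renewed quantile normalization. The choice among several probe sets of a gene was not run, since each of the 10 genes has 1. Arrays of 3 mice per group limit the precision.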
